A study of Homo sapiens with 24 samples.

Results

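The libraries described here are those of atrial-protocol cultures labelled as a ZNF503 knockout, set against atrial-protocol cultures in which the control locus TRAC was targeted. Members were chosen by their labels: 3 libraries of AM ZNF503 and 3 of AM TRAC, 6 of the 24 libraries of the series, with all genes considered. All came from the human embryonic stem cell line HES3 with the reporters NKX2-5GFP and NR2F2mCherry, which the targeted groups and the TRAC control carry alike, and knockouts were made with CRISPR-Cas9. Cells were grown as embryoid bodies under Wnt modulation for at most 14 days, and retinoic acid was given on day 4 in the atrial condition (AM) and not in the ventricular one (VM). AM and VM are not spelled out in the labels and were read this way because of the retinoic acid. Comparison groups of 3 libraries each were AM LHX2 and AM ZNF711, in which another gene was targeted under the same protocol, and VM ZNF503 and VM TRAC, the same pair of targets without retinoic acid. TRAC encodes the constant region of the T cell receptor alpha chain, which heart cells do not use. Replicates are numbered 1 to 3, but the labels do not say that they came from separate cultures, nor whether a knockout is 1 clone or a pool, so p-values measure the spread between these libraries.

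ZNF503 (also known as NOLZ1 or NLZ2) and its paralog ZNF703 form the vertebrate NET family of zinc finger proteins. They act as transcriptional repressors that recruit Groucho (TLE) corepressors and histone deacetylases, and they take part in patterning of the embryonic hindbrain, striatum, limb and eye. Retinoic acid given early in cardiac differentiation steers mesoderm toward atrial cells, which express the nuclear receptor NR2F2.

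Depth was similar across the 6 libraries, with 5338277 to 6353517 counts and 23561 to 25295 genes with a count. Mitochondrial genes took 1.31% to 2.79% of counts in AM ZNF503 and 2.31% to 3.15% in AM TRAC. The AM LHX2 and AM ZNF711 libraries were shallower, at 2899786 to 5134066 counts. TRAC RNA was close to absent, with 3 to 19 counts in the 6 libraries, and could not check the control label. Markers of the labelled cell type were present. The 20 cardiomyocyte genes of a marker list summed to 17600, 19440 and 25950 CPM in AM ZNF503 and to 22090, 22930 and 26970 CPM in AM TRAC. The sarcomere genes TTN and MYH6 gave most of each sum, at 7833 and 5026 CPM in AM ZNF503 replicate 1. Means in AM TRAC ran from 5.61 CPM for CASQ2 to 9790 CPM for TTN. CPM (counts-per-million) use library sizes scaled with TMM, the trimmed mean of M-values method.

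The targeted gene was examined first. ZNF503 (ENSG00000165655, GRCh38, chr10:75397830-75401906, minus strand) was raised, and not reduced, under the ZNF503 label. It stood at 255, 367 and 269.5 CPM in AM ZNF503 replicates 1, 2 and 3 and at 103, 111 and 123 CPM in AM TRAC. Every AM ZNF503 library lay above every control, as for 4.54% of all genes tested. Means were 297 ± 60.7 and 112 ± 9.79 CPM (SD, n = 3 each), and the fitted fold was 2.61. The fitted log2 fold change was 1.39 (standard error 0.23), and ZNF503 was called higher by edgeR's quasi-likelihood test with Benjamini-Hochberg adjustment over all genes (adjusted p = 0.0488). That call sat at the threshold and was lost when any 1 of the 6 libraries was left out, with adjusted p from 0.0814 without AM ZNF503 replicate 3 to 0.793 without AM TRAC replicate 3. The size of the difference moved less and was lowest, at 1.24, without AM TRAC replicate 2. Gene counts do not show whether the coding sequence was edited, so ZNF503 is used below as the label of the libraries and not as a loss of the RNA.

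The 250 bases before the outermost of the ZNF503 start sites that RefSeq lists are shown because this is the gene the guides were directed at and its RNA had the largest fold change among the called genes of at least 5 CPM. The window is chr10:75401917-75402166 on the minus strand of GRCh38.p14, and capitals mark its 1 match to the GC box GGGCGG, searched on both strands.
ZNF503 upstream: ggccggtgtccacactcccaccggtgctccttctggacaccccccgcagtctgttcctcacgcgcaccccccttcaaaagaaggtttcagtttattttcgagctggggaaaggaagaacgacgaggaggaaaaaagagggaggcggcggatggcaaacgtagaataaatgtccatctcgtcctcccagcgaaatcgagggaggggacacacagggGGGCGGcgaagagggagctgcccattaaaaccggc
This hexamer stood in 42.6% of the 35116 promoter windows of the same length in the RefSeq table, so its presence is common. The antisense gene ZNF503-AS2 runs through the window on the opposite strand.

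ZNF703, the paralog, rose with ZNF503. Its values were 149, 205 and 130.2 CPM in AM ZNF503 against 75.7, 104 and 85.5 CPM in AM TRAC. The groups did not overlap, and the fitted log2 fold change was 0.86 (standard error 0.13, edgeR adjusted p = 0.000706). It had the lowest p of all genes tested. The ZNF703 call held in 6 of 6 fits that left out 1 library and in 8 of 9 other settings, and was lost in the fit without pairing of the replicates (adjusted p = 1).

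The antisense gene ZNF503-AS2 (chr10:75401519-75408982, plus strand) overlaps the first bases of ZNF503. Its values were 17.3, 19.9 and 14.5 CPM in AM ZNF503 against 7.05, 8.12 and 6.92 CPM in AM TRAC. The groups were again separate, but the log2 fold change of 1.22 (standard error 0.37) did not pass (edgeR adjusted p = 0.482). Whether counting used strand is not given in the sources used here, so reads in the stretch that the 2 genes share (chr10:75401519-75401906) cannot be told apart. The second antisense gene, ZNF503-AS1, had 8, 3 and 4 counts against 5, 6 and 8 and was too low to be tested.

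**Figure D1:**
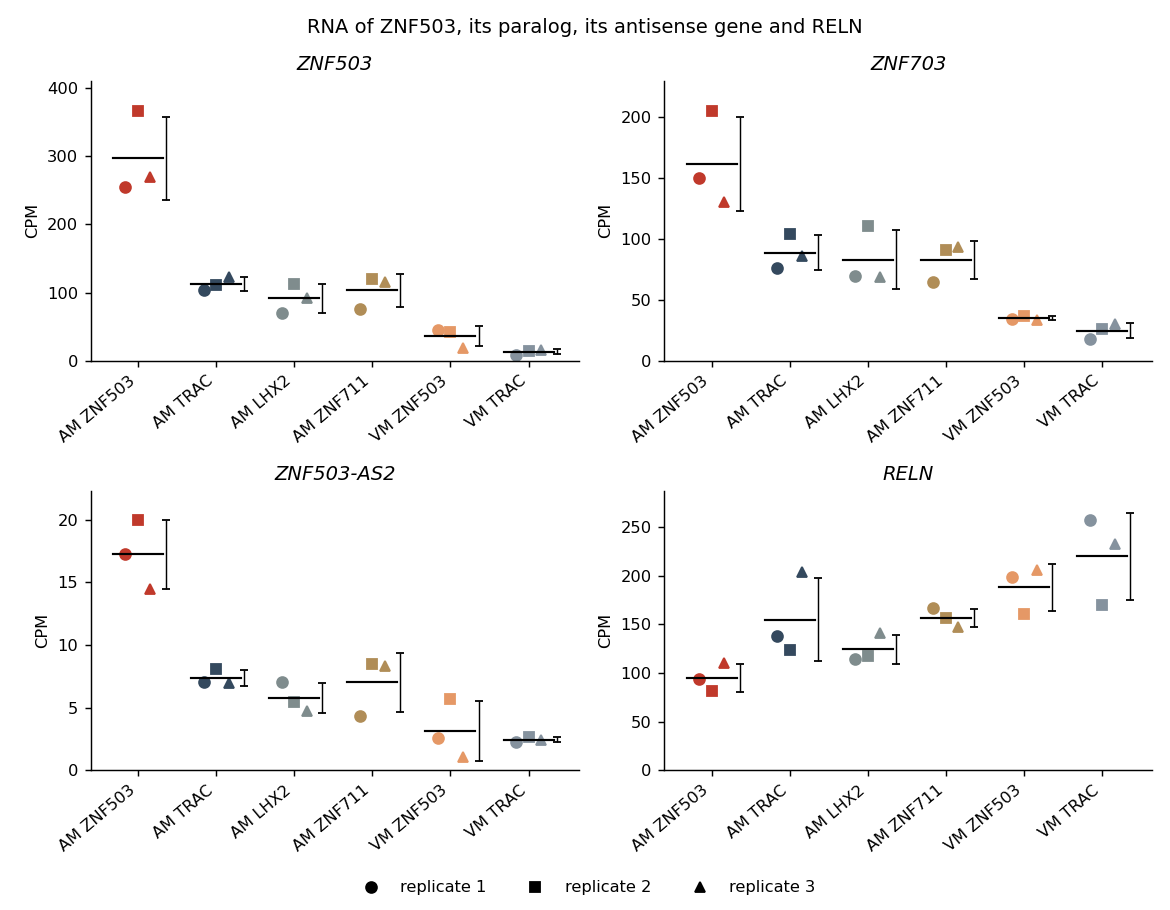
CPM (y axis, linear from 0) of 4 genes in each library of 6 groups (x axis); markers give the replicate number, the horizontal line the mean of 3 libraries and the bar 1 SD. The 3 AM ZNF503 libraries are above all other libraries for ZNF503, ZNF703 and ZNF503-AS2, and below all other AM libraries for RELN.

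Across all genes, 10 of 17724 were called in AM ZNF503 against AM TRAC (0.0564%), 9 higher (0.0508%) and 1 lower. At an unadjusted p under 0.05 there were 458 genes higher and 451 lower. All 3 AM ZNF503 libraries stood above all 3 controls for 805 genes and below them for 710 (4.01%). Among the 8 called genes with a mean of at least 5 CPM, 6 were above without overlap (ZNF503, ZNF703, ATF3, VEGFA, HK2 and PPP1R15B), RELN was below, and PKD1L2 overlapped. These separations come from the contrast that gave the calls and add nothing to them. The count of calls moved with the fit: with no replicate block 0 genes were called, with 1 block shared by both protocols 1 gene (ZNF703), and in a fit of these 6 libraries alone, with the pairing kept, 120 genes, of which 35 were higher. Leaving out 1 library gave from 1 call, without AM TRAC replicate 3, to 15, without AM TRAC replicate 1. It gave 3, 2 and 7 without AM ZNF503 replicate 1, 2 and 3, and 4 without AM TRAC replicate 2.

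**Figure D2:**
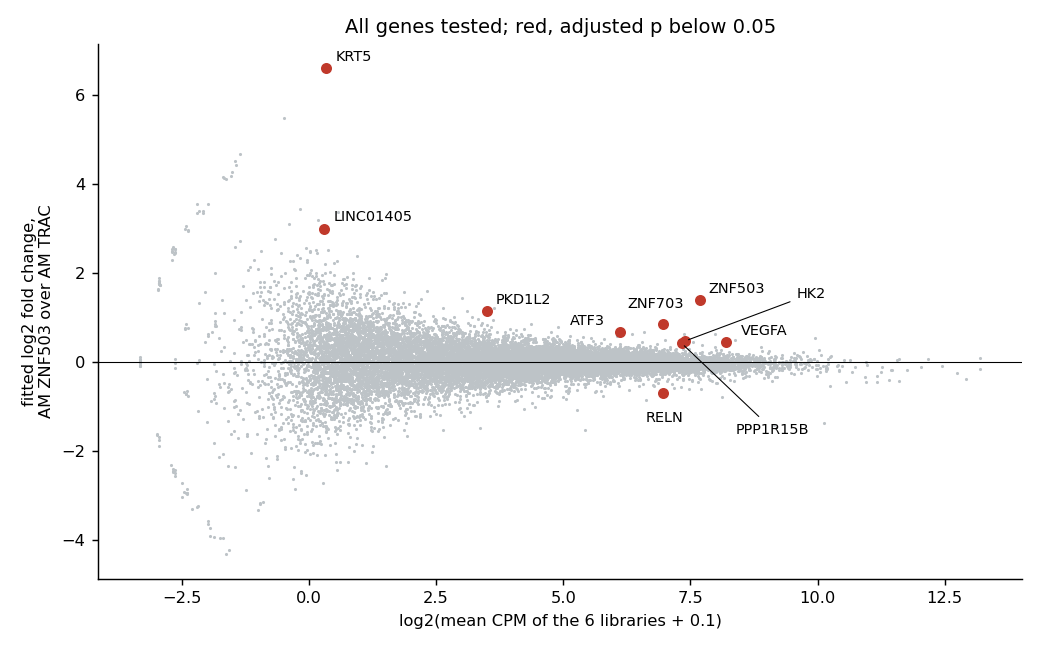
Fitted log2 fold change of AM ZNF503 over AM TRAC (y axis) against the log2 mean CPM of the 6 libraries (x axis) for 17724 genes; red points are the 10 genes with an adjusted p below 0.05. ZNF503 has the largest fold change among the called genes of at least 5 CPM, RELN is the called gene below 0, and the values of KRT5 and LINC01405 rest on few counts.

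Genes known to work with the NET proteins stayed close to the control. Of the 12 genes on the list of NET family members and partners, which holds the TLE corepressors and the deacetylases HDAC1 and HDAC2 among others, ZNF503 and ZNF703 were called higher and the other 10 were not called. The list's median log2 fold change was -0.01, and that of all genes tested was -0.0044. Those 10 lay between -0.12 (TLE4) and 0.08 (TLE2). Neighbouring genes of ZNF503 did not pass either: VDAC2, a mitochondrial outer membrane channel, had 0.09, and SAMD8, a sphingolipid enzyme, had 0.06. The large potassium channel gene KCNMA1 had -0.68 (edgeR unadjusted p = 0.0904).

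RELN (chr7:103471784-103989516, minus strand), which encodes the secreted glycoprotein reelin, was the gene that fell. Its values were 93.6, 81.7 and 109.9 CPM in AM ZNF503 against 138, 123 and 204 CPM in AM TRAC. Each AM ZNF503 library was below every control, and the log2 fold change was -0.69 (standard error 0.11, edgeR adjusted p = 0.00224). AM TRAC replicate 3 was high for this gene. Without it the log2 fold change was -0.51 and the call was lost (adjusted p = 0.766), as it was without AM ZNF503 replicate 2 (adjusted p = 0.0852). The RELN promoter is shown because it belongs to the called gene that fell. The window chr7:103989659-103989908 (minus strand, GRCh38.p14) holds 6 GC boxes, marked in capitals, of which several overlap.
RELN upstream: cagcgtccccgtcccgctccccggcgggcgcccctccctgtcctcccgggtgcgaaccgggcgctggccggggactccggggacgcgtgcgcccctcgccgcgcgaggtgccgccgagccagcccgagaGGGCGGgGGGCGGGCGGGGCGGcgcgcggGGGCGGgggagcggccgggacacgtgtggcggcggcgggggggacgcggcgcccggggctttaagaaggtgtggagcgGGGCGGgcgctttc

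ATF3 (chr1:212565334-212620777), a transcription factor of the stress response, rose from 53.3, 58.2 and 49.0 CPM in AM TRAC to 85.0, 83.1 and 88.2 CPM in AM ZNF503. The AM ZNF503 values were tightly grouped, and the log2 fold change was 0.67 (standard error 0.12, edgeR adjusted p = 0.0148). The call was lost without AM TRAC replicate 3 (adjusted p = 0.842), AM ZNF503 replicate 1 (0.139) or AM ZNF503 replicate 2 (0.0861). ATF3 was the 1 called gene of 12 on the immediate early list, of which 9 were above 0 and 3 below, with a median of 0.15. FOSB, a partner of JUN in the AP-1 factor, had 0.82 without passing (edgeR unadjusted p = 0.0109), while FOS had 0.11 and EGR1 had -0.26.

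PPP1R15B (chr1:204403387-204411791, minus strand), the constitutive subunit that directs protein phosphatase 1 to the translation factor eIF2 alpha, stood at 183, 173 and 195 CPM against 140.3, 128 and 143 CPM. The groups were separate, the fitted log2 difference was 0.42 with a standard error of 0.09, and the edgeR adjusted p was 0.0488. All 6 fits with 1 library left out lost the call, with adjusted p from 0.101 without AM TRAC replicate 1 to 0.815 without AM TRAC replicate 3. Its promoter is shown because it held the 1 match among the named genes to the composite element TGATGCAA, the kind of site bound by dimers of ATF4 and C/EBP factors, marked in capitals in chr1:204411818-204412067 (minus strand, GRCh38.p14).
PPP1R15B upstream: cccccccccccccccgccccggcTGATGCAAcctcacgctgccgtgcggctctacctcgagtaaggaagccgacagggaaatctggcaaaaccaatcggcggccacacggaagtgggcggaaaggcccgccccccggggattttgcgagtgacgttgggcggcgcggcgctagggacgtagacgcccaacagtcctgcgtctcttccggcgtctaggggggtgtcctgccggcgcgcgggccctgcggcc
On both strands TGATGCAA stood in 0.772% of the 35116 windows. RefSeq windows were found for 18 of the 24 genes named by rule.

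VEGFA and HK2 were the called genes of the hypoxia and glycolysis list. VEGFA (chr6:43770184-43786487), the main growth factor for blood vessels and a target of the hypoxia-inducible factors, stood at 359, 342 and 314 CPM in AM ZNF503 against 296, 235 and 218 CPM in AM TRAC. Its lowest AM ZNF503 library was above the highest control, and the log2 fold change was 0.45 (standard error 0.09, edgeR adjusted p = 0.0349). The VEGFA call held without AM TRAC replicate 1 (adjusted p = 0.0272) and was lost in the other 5 fits with a library left out, with adjusted p from 0.0814 without AM ZNF503 replicate 3 to 1 without AM TRAC replicate 3.

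HK2 (chr2:74833981-74893359), hexokinase 2, which phosphorylates glucose at the entry to glycolysis, stood at 206, 194 and 187 CPM against 139, 153 and 129.7 CPM. The log2 fold change was 0.48 (standard error 0.10, edgeR adjusted p = 0.041), and no library overlapped with the controls. This call was lost in all 6 fits with 1 library left out, from an adjusted p of 0.0625 without AM TRAC replicate 2 to 1 without AM TRAC replicate 3. The HK2 window chr2:74834920-74835169 (plus strand, GRCh38.p14) is shown because HK2 is a textbook target of the hypoxia-inducible factors. RefSeq lists 2 start sites for HK2, and the window printed is the one with more matches to the core searched, 4 against 2 in the other. Capitals mark ACGTG, a form of the core of their binding site, on either strand. Only this form was searched. The 4 matches are 2 palindromes CACGTG, each counted on both strands, which are also the E-box of other factors.
HK2 upstream: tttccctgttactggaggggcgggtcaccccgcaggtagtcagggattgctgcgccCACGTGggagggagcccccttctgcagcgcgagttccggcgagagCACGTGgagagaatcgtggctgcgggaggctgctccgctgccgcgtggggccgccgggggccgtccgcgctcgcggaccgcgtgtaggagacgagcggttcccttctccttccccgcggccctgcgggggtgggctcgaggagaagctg
The core stood in 18.5% of the 35116 windows. A match describes the letters and not a bound site.

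The hypoxia and glycolysis list held 11 tested genes, of which 10 were above 0 and 1 below, with a median log2 fold change of 0.23 beside -0.0044 for all genes. VEGFA and HK2 were called higher, beside 0.0564% called over all genes tested, and the other 9 were not called. Of these, the glycolytic enzymes ALDOA and LDHA had 0.73 (edgeR unadjusted p = 0.0559) and 0.26 (edgeR unadjusted p = 0.00997). ENO1, enolase 1 and among the most abundant members, had 0.15, and PDK1, a kinase that holds pyruvate back from the mitochondria, had -0.16, and was called lower against AM LHX2 and AM ZNF711 (-0.43, edgeR adjusted p = 0.0191). That PDK1 call was lost in 5 of the 9 fits with a library left out, with the highest adjusted p of 0.34 without AM ZNF503 replicate 2. The median of the list was 0.03, 0.18 and 0.52 in pairs 1, 2 and 3, so replicate 3 gave the highest value and replicate 1 one near 0.

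PKD1L2 (chr16:81100875-81220370, minus strand), a member of the polycystin family, varied widely between replicate numbers. It stood at 25.2, 10.8 and 9.47 CPM in AM ZNF503 and at 14.8, 5.46 and 1.64 CPM in AM TRAC. The groups overlapped, and the gene was higher within each pair, with a fitted log2 difference of 1.15, a standard error of 0.25 and an edgeR adjusted p of 0.0488. The call held without AM TRAC replicate 1 (adjusted p = 0.0114) and was lost in the other 5 fits with a library left out, up to an adjusted p of 1 without AM TRAC replicate 3.

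KRT5 and LINC01405 were also called, fell under the 5 CPM minimum for naming, and are named after their values were seen. KRT5, a keratin of basal epithelium, had 0, 18 and 20 counts in AM ZNF503 and 0 in each AM TRAC library. Set against 3 counts over the whole AM TRAC group, the level in AM ZNF503 was at least 13-fold higher, a bound that covers counting error only. One AM ZNF503 library held none. KRT5 stood at 0.321, 0.259 and 4.56 CPM in AM LHX2, which was also called above AM TRAC (edgeR adjusted p = 0.00799), and at 0 in AM ZNF711. The KRT5 call of AM ZNF503 (edgeR adjusted p = 0.0349) was lost without AM ZNF503 replicate 2 (adjusted p = 0.131), AM TRAC replicate 2 (0.228) or AM TRAC replicate 3 (1). LINC01405, a long noncoding RNA, had 18, 11 and 6 counts against 1, 1 and 2 (fitted fold 8.02, edgeR adjusted p = 0.0349). Its call held without AM ZNF503 replicate 3 (adjusted p = 0.0185) and was lost in the other 5 fits with a library left out, with adjusted p from 0.131 without AM ZNF503 replicate 2 to 0.343 without AM ZNF503 replicate 1. Against AM LHX2 and AM ZNF711 together, its log2 fold change was 0.78 (edgeR adjusted p = 0.519). AM LHX2 was also called above AM TRAC for LINC01405 (2.50, edgeR adjusted p = 0.0307), and AM ZNF711 had 1.94 (0.267).

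To see where these differences stand within the protocol, AM ZNF503 was also compared with the mean of AM LHX2 and AM ZNF711, a contrast without the TRAC libraries that shares AM ZNF503 with the first. There 83 genes were called (0.468%), 41 higher and 42 lower, and 1783 had an unadjusted p under 0.05. Against AM TRAC, 552 of 17724 genes were called in AM LHX2 and 94 in AM ZNF711. A call in the present contrast can therefore hold a difference of those groups from AM TRAC. TLN2 and CNTFR, for example, had 0.45 and 0.59 here but 0.07 and -0.01 in AM ZNF503 against AM TRAC. ZNF503 stood at 70.7, 113 and 91.5 CPM in AM LHX2 and at 75.7, 119 and 116 CPM in AM ZNF711, near AM TRAC and below every AM ZNF503 library. Its log2 fold change was 1.62 (edgeR adjusted p = 0.00217). ZNF703 had 0.96 (edgeR adjusted p = 6.21e-07), with AM LHX2 at 69.7, 111 and 68.3 CPM and AM ZNF711 at 64.8, 90.6 and 92.9 CPM. For both genes the 3 AM ZNF503 libraries were above the 9 others of the protocol. ZNF503-AS2 was called in this contrast, at 1.45 (edgeR adjusted p = 0.0187). That call was lost without AM ZNF503 replicate 1 (adjusted p = 0.299), AM ZNF503 replicate 2 (0.211), AM LHX2 replicate 3 (0.0601) or AM ZNF711 replicate 1 (0.0838).

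RELN was lower here too, with 114, 118 and 142 CPM in AM LHX2 and 166, 157 and 147 CPM in AM ZNF711, all above the highest AM ZNF503 library. The log2 fold change was -0.57 (edgeR adjusted p = 0.00271), and the call was lost without AM ZNF503 replicate 1 (adjusted p = 0.0838) or replicate 2 (0.0868). Further genes with the lowest p in each direction were SEMA6D, a semaphorin, at 0.64 (edgeR adjusted p = 0.00217), PPM1K, a mitochondrial phosphatase of branched-chain amino acid breakdown, at -0.67 (0.00133), and KLHL31, a kelch protein of striated muscle, at -1.07 (0.00217). Against AM TRAC these had 0.28, -0.23 and -0.74, none of them called. AM ZNF711 was itself called against AM TRAC for SEMA6D (-0.54, edgeR adjusted p = 0.0328) and PPM1K (0.50, 0.0365). AM LHX2 was not (-0.18 and 0.38). KLHL31 was called in neither (0.34 in AM LHX2 and 0.31 in AM ZNF711). Against those 2 groups the SEMA6D call of AM ZNF503 was lost without AM ZNF503 replicate 1 (adjusted p = 0.153). Its KLHL31 call was lost without AM ZNF503 replicate 1 (0.129) or replicate 2 (0.0794). The number of calls ran from 5 without AM ZNF503 replicate 1 to 285 without AM ZNF711 replicate 3. It was 12 without AM ZNF503 replicate 2, 34 without AM LHX2 replicate 3, and 28 and 45 without AM ZNF711 replicate 1 and 2.

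ATF3, VEGFA and HK2 took another pattern. ATF3 stood at 92.8, 75.5 and 107 CPM in AM LHX2 and at 64.0, 77.1 and 79.9 CPM in AM ZNF711, so the 3 AM TRAC libraries were the lowest of the 12. Against those 2 groups the log2 fold change of ATF3 in AM ZNF503 was 0.06 (edgeR adjusted p = 0.926). The comparisons with AM TRAC share its libraries, and side by side ATF3 had 0.67 in AM ZNF503, 0.77 in AM LHX2 (edgeR adjusted p = 0.000255) and 0.45 in AM ZNF711 (0.0871). VEGFA was at 322, 271 and 318 CPM in AM LHX2 and at 329, 266 and 297 CPM in AM ZNF711, with 0.17 against them (edgeR adjusted p = 0.42). HK2 was at 187, 153 and 192 CPM and at 136, 159.7 and 146 CPM, with 0.28 (edgeR adjusted p = 0.148). Against AM TRAC, AM LHX2 was also called higher for HK2 (0.34, edgeR adjusted p = 0.0497), and AM ZNF711 was not (0.06).

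PPP1R15B lay between, with 164, 161 and 184 CPM in AM LHX2 and 136, 151 and 140.3 CPM in AM ZNF711, and 0.24 against both (edgeR adjusted p = 0.178). For PKD1L2, AM LHX2 was also high at 20.9, 15.5 and 10.5 CPM, while AM ZNF711 was at 8.80, 3.62 and 3.38 CPM. AM LHX2 was called above AM TRAC for PKD1L2 (1.29, edgeR adjusted p = 0.00239), and AM ZNF711 had -0.38 without a call. The medians of the hypoxia and glycolysis list against AM TRAC were 0.23 in AM ZNF503, 0.12 in AM LHX2 and 0.25 in AM ZNF711. Whether the AM TRAC libraries or the targeted ones set these differences was not tested.

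**Figure D3:**
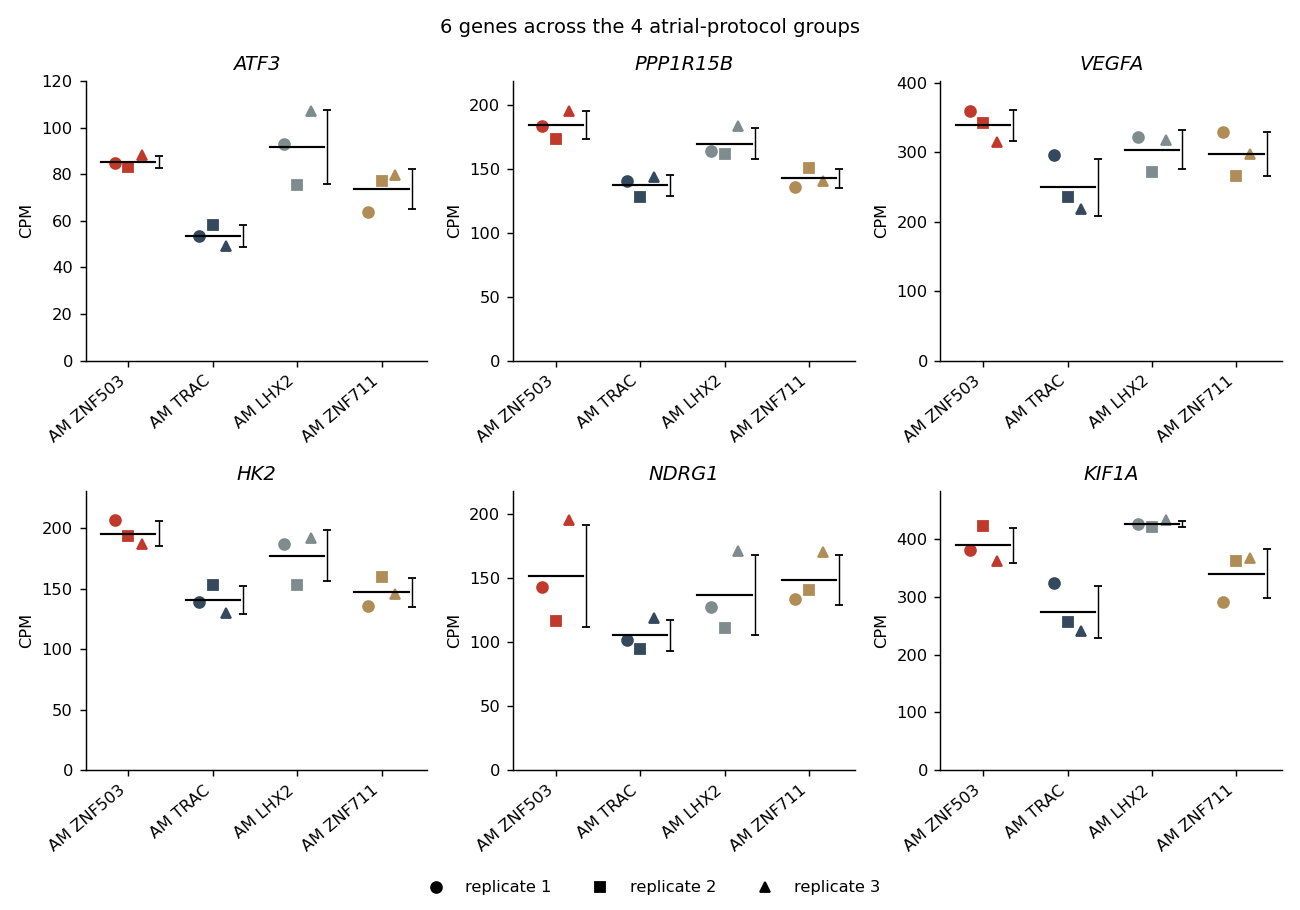
CPM (y axis, linear from 0) of 6 genes in the 12 libraries of the 4 atrial-protocol groups (x axis); markers give the replicate number, lines the mean of 3 libraries and bars 1 SD. AM TRAC has the lowest mean in all 6 panels, while AM LHX2 is above AM ZNF503 for ATF3 and KIF1A.

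The 16 genes with the next lowest p, 11 higher and 5 lower, did not pass (edgeR adjusted p 0.0506 to 0.203). The motor protein gene KIF1A had 0.51, with 381, 423 and 362 CPM against 325, 256 and 240.2 CPM, and NDRG1, a gene raised by hypoxia and by differentiation, had 0.51. The mitochondrial folate enzyme MTHFD2 (0.58), the lactate transporter SLC16A3 (0.46), the enolase ENO2 (0.63), GFPT1 of the hexosamine pathway (0.39) and the stress cytokine GDF15 (0.67) were on the same side. Each of these 7 was nearer to 0 against AM LHX2 and AM ZNF711, between -0.02 for GFPT1 and 0.35 for ENO2.

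CXCL14, a chemokine, stood at 10.1, 6.96 and 17.8 CPM in AM ZNF503 against 3.98, 3.75 and 4.92 CPM in AM TRAC. Its log2 fold change was 1.45 against AM TRAC (edgeR adjusted p = 0.0773) and 1.46 against AM LHX2 and AM ZNF711 (0.00673), contrasts that share the AM ZNF503 libraries. With 1 library left out, the CXCL14 value against AM TRAC ran from 0.898, without AM ZNF503 replicate 3, to 1.84, without AM ZNF503 replicate 2, where it passed (edgeR adjusted p = 0.026). The CXCL14 call against the other 2 groups was lost without AM LHX2 replicate 3 (adjusted p = 0.0687), AM ZNF503 replicate 1 (0.129) or AM ZNF503 replicate 3 (0.207). RGS5, a regulator of G protein signalling known from pericytes, stood at 18.8, 22.1 and 38.8 CPM against 30.7, 34.96 and 57.6 CPM. The groups overlapped, since replicate 3 was high in both, and the values were -0.64 (edgeR adjusted p = 0.108) and -0.71 (0.00462). The second RGS5 value lost its call without AM ZNF503 replicate 1 (adjusted p = 0.158) or replicate 2 (0.0955). SCUBE3, a secreted signalling protein, had -0.59 and -0.35 without passing in either.

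The same target under the ventricular protocol gave a comparison that shares no library with the atrial one. There 0 of 17724 genes were called (0%) by edgeR, with 795 at an unadjusted p under 0.05, and 0 by DESeq2. ZNF503 stood at 45.3, 42.7 and 19.1 CPM in VM ZNF503 against 8.82, 14.7 and 16.2 CPM in VM TRAC. The 3 libraries were above the 3 controls here too, but replicate 3, at 19.1 CPM, was close to the highest control, at 16.2 CPM. The share of all genes separated this way was not counted for the ventricular protocol. Levels were far under those of the atrial libraries, and the ZNF503 log2 fold change was 1.36 (standard error 0.29, edgeR unadjusted p = 0.000433, adjusted p = 1). ZNF703 stood at 34.3, 37.0 and 33.3 CPM against 18.1, 25.6 and 30.4 CPM, a log2 fold change of 0.50 (edgeR unadjusted p = 0.00205, adjusted p = 1). RELN had -0.21, with overlapping groups.

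The other called genes of at least 5 CPM were on the other side of 0 or at it in the ventricular pairs. VEGFA had -0.09, HK2 -0.16, PPP1R15B -0.13, ATF3 -0.03 and PKD1L2 -0.01, and the hypoxia and glycolysis list had a median of -0.11. The difference between the protocols was tested as an interaction, in which 0 genes were called (0%) by edgeR and 0 by DESeq2, with 1041 at an unadjusted p under 0.05 and a lowest adjusted p of 0.219. HK2 reached that value, with an interaction of 0.63 (standard error 0.14), and VEGFA had 0.54 (edgeR adjusted p = 0.342). For ZNF503 the interaction was 0.03 (standard error 0.39) and for ZNF703 0.36 (standard error 0.20).

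**Figure D4:**
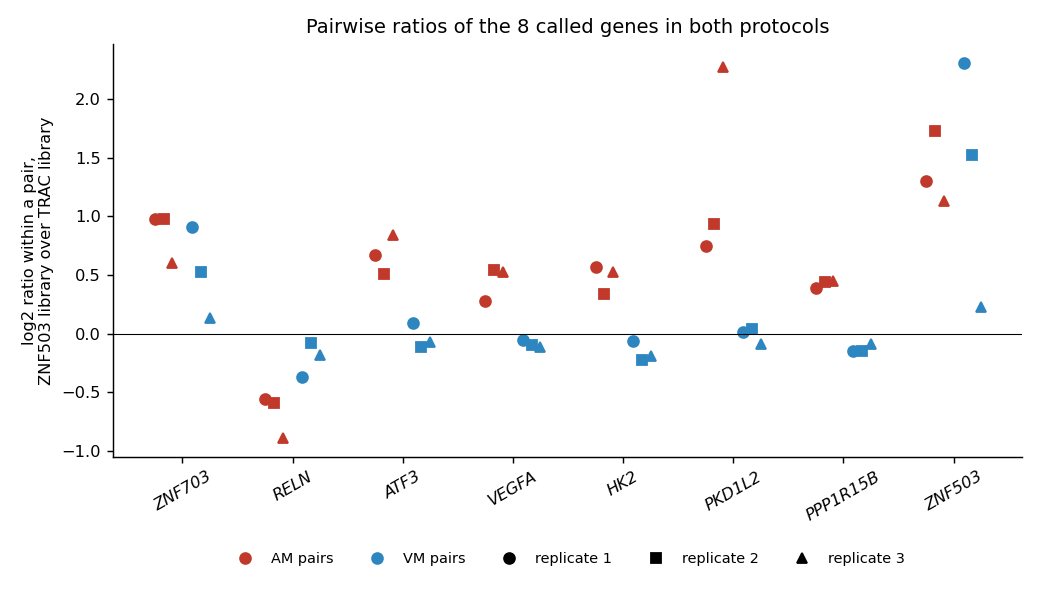
Log2 ratio of the ZNF503-labelled library to the TRAC library of the same replicate number (y axis) for the 8 called genes of at least 5 CPM (x axis), in the atrial (red) and ventricular (blue) pairs. ZNF503 and ZNF703 are above 0 in all 6 pairs and RELN below 0 in all 6, while VEGFA, HK2 and PPP1R15B are above 0 in the atrial and below 0 in the ventricular pairs.

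Cell type markers were examined by list. The 24 lists held 278 genes, of which 253 were tested and 5 called (ZNF503, ZNF703, ATF3, VEGFA and HK2). Over all genes tested, 10 of 17724 were called (0.0564%). ZNF503 and ZNF703 were on a list as the NET family, and the lists were chosen with earlier results of these data known. No enrichment is therefore read from these counts. The cardiomyocyte list had 17 of 20 genes below 0 and a median of -0.19, with 0 called. TTN, the giant sarcomere protein, stood at 7833, 8724 and 9983 CPM against 8898, 10580 and 9896 CPM (log2 fold change -0.14), and MYH6, the atrial myosin heavy chain, had -0.25. In bulk samples fewer cells of a type and less RNA per cell cannot be told apart. The list's median was -0.41, -0.20 and 0.03 in pairs 1, 2 and 3, so the third pair did not share it. Against AM LHX2 and AM ZNF711 the cardiomyocyte median was -0.42, again with 0 called.

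Atrial identity genes were balanced, 5 above and 5 below 0, with a median of -0.09. NR2F2, the atrial receptor tagged in this line, stood at 384, 373 and 441 CPM against 411, 455 and 514 CPM (log2 fold change -0.20, edgeR adjusted p = 1). The ventricular list had a median of 0.06, and the retinoic acid response list had 8 of 17 genes above 0 and a median of -0.05. The sinus node list had 8 of 10 genes below 0 (median -0.13), and HCN4, its pacemaker channel, had -0.02, a value whose sign changed with scaling to library size alone. None of these genes was called against AM TRAC. Against AM LHX2 and AM ZNF711, KCNJ5, an atrial potassium channel gene, and TBX3, a transcription factor of the sinus node, were called lower (-0.89 and -0.69, edgeR adjusted p = 0.0242 and 0.00271). Without AM ZNF503 replicate 1 both calls were lost (adjusted p = 0.349 and 0.157). That of KCNJ5 was also lost in 4 of the 8 other fits with a library left out. Mean KCNJ5 was 16.3 CPM in AM ZNF503, 19.93 in AM TRAC, 21.57 in AM LHX2 and 38.2 in AM ZNF711. Mean TBX3 was 44.68, 49.45, 58.29 and 86.8 CPM in the same order. Against AM TRAC, AM ZNF711 was itself called higher for KCNJ5 and TBX3 (1.003 and 0.861, edgeR adjusted p = 0.0214 and 0.00122). AM LHX2 was not (0.093 and 0.253), and AM ZNF503 had -0.34 and -0.13.

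Among other cell types, smooth muscle (7 of 8 genes below 0, median -0.26), endothelial and endocardial (9 of 11, -0.24), fibroblast (10 of 12, -0.19) and endoderm (9 of 14, -0.20) had 0 called genes each. Against AM LHX2 and AM ZNF711 the medians of these 4 lists were 0.03, 0.20, 0.08 and -0.59, so only the endoderm median was below 0 in both contrasts. There TIE1, an endothelial receptor, was called higher (0.65, edgeR adjusted p = 0.00794) and LUM, the matrix proteoglycan lumican of the fibroblast list, lower (-1.87, edgeR adjusted p = 0.0288). Without AM ZNF503 replicate 1 both calls were lost (adjusted p = 0.349 and 0.35), and that of LUM in 4 of the 8 other fits with a library left out. Mean TIE1 was 54.27 CPM in AM ZNF503, 54.75 in AM TRAC, 33.3 in AM LHX2 and 36.5 in AM ZNF711. Mean LUM was 5.09, 8.16, 17.6 and 18.3 CPM in the same order. In AM ZNF503 against AM TRAC, TIE1 had 0.004 and LUM -0.71, neither of them called. ACTA2, smooth muscle actin, had -0.34 and KDR, the VEGFA receptor of endothelium, had -0.39 (edgeR adjusted p = 0.894 and 0.648). Summed endoderm markers were 477, 415 and 1320 CPM in AM ZNF503 and 643, 519 and 1630 CPM in AM TRAC, high in both libraries of replicate 3. Summed smooth muscle markers were 1027, 1119 and 1448 CPM against 1255, 1331 and 1945 CPM, again highest in replicate 3. The part of these cell types in the called genes was not tested.

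The p53 target list had 12 of 13 genes above 0, with a median of 0.11 and 0 called. CDKN1A, the cell cycle inhibitor p21, stood at 114, 137 and 127 CPM against 98.5, 96.6 and 105 CPM (log2 fold change 0.33, edgeR adjusted p = 0.58), and MDM2, the p53 ubiquitin ligase, had 0.11. Against AM TRAC the p53 list had a median of 0.35 in AM LHX2 and 0.07 in AM ZNF711. AM LHX2 was called higher there for CDKN1A and MDM2 (0.43 and 0.40, edgeR adjusted p = 0.0134 and 0.0186). The p53 median was 0.01 for AM ZNF503 against AM LHX2 and AM ZNF711, and 0.01 in the ventricular pairs. In AM ZNF503 against AM TRAC, the cell cycle list had 10 of 12 genes below 0 and a median of -0.21, with the proliferation marker MKI67 at -0.40 (edgeR adjusted p = 0.97). In the ventricular pairs the cell cycle median was 0.22. The medians of the TGF-beta and BMP, WNT and Notch lists were 0.08, 0.04 and 0.06, with 0 called.

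**Figure D5:**
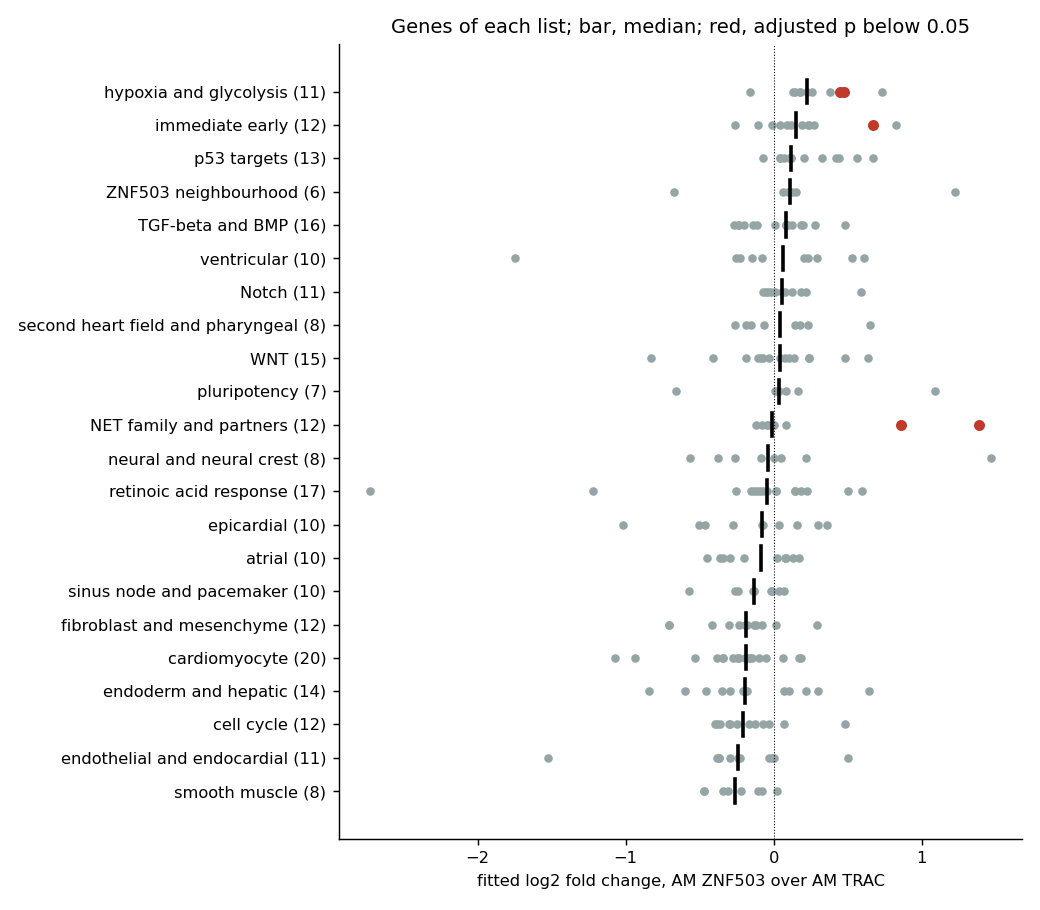
Fitted log2 fold change of AM ZNF503 over AM TRAC (x axis) for the tested genes of each list with at least 5 of them (y axis, number tested in brackets); black bars are medians and red points the called genes. Medians run from -0.26 for smooth muscle to 0.23 for hypoxia and glycolysis, and most single genes overlap between lists.

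Genes whose pattern was most like that of ZNF503 were sought over the 12 atrial-protocol libraries after removing replicate means. Of 12732 genes with a mean of at least 5 CPM, the highest Pearson correlations were those of ZNF703 (0.969), RNF157 (0.938), ZNF503-AS2 (0.935), PER1 (0.911) and DLK1 (0.903). These points share the libraries and the high AM ZNF503 group, and are a description. RNF157, a ubiquitin ligase, had a log2 fold change of 0.46, PER1, a core clock repressor, 0.33, and DLK1, a Notch-like ligand, 0.62 against AM TRAC, none of them called (edgeR adjusted p 0.648 to 0.983). DLK1 stood at 298, 407 and 212 CPM in AM ZNF503 and 182, 277 and 139.8 CPM in AM TRAC, higher in each pair while the groups overlapped.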

How the data were processed

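RNA was measured by sequencing in 24 libraries. The deposited values are gene counts, made by the authors from reads. STAR and GRCh38 are named in the submitters' processing notes, while the counting program, its strand setting and the annotation are not given in the sources used here. The labels name polyA RNA in one field and RiboErase depletion (KAPA, Roche) in another. Every count column matched a library (0 unmatched). Of 62757 genes, 23919 had no count, and gene positions are from GENCODE for GRCh38.

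Genes were kept by filterByExpr (17724) and fitted with edgeR 4.0.16 in R 4.3.3: TMM scaling, robust quasi-likelihood F tests, 1 mean per group and a replicate block within each protocol over all 24 libraries (12 residual degrees of freedom, biological coefficient of variation 14.3%). The other groups enter to estimate the spread. Within a comparison, Benjamini-Hochberg adjustment covered every tested gene, with calls at an adjusted p below 0.05. Fold changes are taken from the fit on the log2 scale, and values per pair are differences of log2 CPM with a prior count of 2. The floor of 3 counts equalled 0.468 to 0.557 CPM in the 6 libraries and covers counting error only.

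Same-numbered libraries were taken as pairs. Over 11428 genes at a mean log2 CPM of at least 3, deviations from the group mean correlated at 0.382, 0.207 and 0.488 between AM ZNF503 and AM TRAC libraries of the same number, and at -0.387 to 0.0534 between other numbers. What the number stands for is not stated. Libraries within a group differed by more than sampling noise (chi-square per degree of freedom 5.36 to 10.6).

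The members and gene lists were chosen with earlier results of these data known. Genes were named by a rule: called genes with a symbol and a mean of at least 5 CPM in the higher group, filled to 24 with the lowest p, the ZNF503 locus genes, the 3 called genes of lowest p in each direction of the second contrast, the called or most abundant genes of each list, and the 5 genes most like ZNF503. Other list members given are named after their values were seen, and not every gene the rule gives is printed. Blood and skeletal muscle lists had 3 and 2 tested genes, 0 called. The epicardial, neural, second heart field and pluripotency lists, with 0 called, had medians of -0.08, -0.04, 0.04 and 0.03.

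Counts were simulated for AM ZNF503 against AM TRAC over 17724 genes. The fit recovered 22 of 67 genes changed by a log2 fold change of 0.5, 51 of those changed by 1 and 66 of those changed by 2. It made 5 false calls there, and 0 calls when no gene was changed. The changed genes were drawn from those with an average log2 CPM above 2, so recovery of lower genes was not measured. Counts were drawn once from the fit's own means and spread, so they cannot show how the test behaves where real counts depart from the model. Alternatives were other scalings and filters, DESeq2 1.42.0, other blocks, fewer libraries in the fit, and leaving out each library. Promoter windows are RefSeq's for GRCh38.p14, trimmed to the 250 bases before the start site.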

Additional observations from a re-analysis of the deposited data

How the results depend on the processing

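In the comparison of AM ZNF503 with AM TRAC, 10 genes were called. The number was 41 without a filter on low counts, 22 with DESeq2, 27 in a fit of the AM libraries only, 120 in a fit of the 2 groups compared, 1 with 1 replicate block shared by both protocols and 0 with no replicate block, and 1 to 15 with 1 library left out. With the 83 genes called against AM LHX2 and AM ZNF711, these settings gave 278, 175, 296, 212, 11 and 1 (ZNF503, with no replicate block), and 5 to 285 with 1 library left out. For the interaction, with 0 called, no filter gave 15 and the groups compared 44, and leaving out a library gave 0 to 2. The setting of only the conditions compared takes in all libraries there and was not run apart. In VM ZNF503 against VM TRAC, with 0 called, no filter gave 1, the VM libraries only 1 and the groups compared 24, and leaving out a library gave 0 to 1. The cause of these shifts was not tested.

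Other scalings and a minimum of 1 CPM in 3 libraries kept each count within 1.5 times. ZNF703 kept its call in all of these settings but the fit with no replicate block, and ZNF503, HK2 and PPP1R15B lost theirs whichever of the 6 libraries was left out. HCN4, at -0.02, turned to 0.0103 with scaling to library size alone, and ran from -0.104 to 0.124 with 1 library left out. With 1 library left out, values not called also changed sign for EGR1 (-0.554 to 0.034), SAMD8 (-0.0952 to 0.248), TLE4 (-0.231 to 0.00635) and VDAC2 (-0.00443 to 0.165). Several list medians within 0.1 of 0 also changed sign with 1 library left out, those of the atrial (0.0764 without AM ZNF503 replicate 3), ventricular, retinoic acid, TGF-beta and BMP, WNT, Notch, second heart field, neural and NET lists, and no direction is read from them. Other medians kept their sign but moved by over 1.5 times with 1 library left out. They ran from -0.1 (without AM ZNF503 replicate 1) to -0.311 (AM ZNF503 replicate 3) for cardiomyocyte, -0.0808 (AM TRAC replicate 1) to -0.396 (AM ZNF503 replicate 2) for cell cycle, -0.0259 (AM ZNF503 replicate 3) to -0.314 (AM ZNF503 replicate 2) for fibroblast, and 0.133 (AM ZNF503 replicate 3) to 0.296 (AM TRAC replicate 1) for p53 targets. The lowest size came without AM TRAC replicate 3 for smooth muscle (-0.0825), endoderm (-0.0768), sinus node (-0.0804) and hypoxia and glycolysis (0.13), and without AM TRAC replicate 2 for immediate early (0.0893, up to 0.29 without AM ZNF503 replicate 1). The epicardial median, -0.0776, reached -0.263 without AM ZNF503 replicate 2 or AM TRAC replicate 2. That of pluripotency, 0.0338, reached 0.124 without AM ZNF503 replicate 1. Values of TIE1, LUM, KCNJ5 and TBX3 against AM TRAC were not followed over these settings, so the stability of their sign is not known. The other genes followed against AM TRAC kept their sign in every setting run. Depth limits the genes near the floor, such as KRT5 and LINC01405.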
